A study of Mus musculus with 12 samples.

Results

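The insulin-like growth factor genes of C2C12 cells, a mouse myoblast line that withdraws from the cell cycle and fuses into multinucleated fibres when serum is lowered, were examined in poly(A) RNA sequencing of 12 libraries. The 10 genes were chosen by name as the ligands Igf1 and Igf2, the receptors Igf1r and Igf2r, and the binding proteins Igfbp2, Igfbp3, Igfbp4, Igfbp5, Igfbp6 and Igfbp7, out of 25776 genes to which deposited transcripts were matched. All 10 passed the filter on low values that left 13077 genes for testing. The libraries form 4 groups of 3 by day and siRNA. Differentiating cells (D2), kept in medium with 2% horse serum after a switch 24 h after siRNA, received siKctd10 (a single siRNA against Kctd10) or siControl (a non-targeting siRNA). Undifferentiated myoblasts (D0), subconfluent in 10% fetal bovine serum, received the same siRNAs. The labels give 48 h of siRNA for every sample, which leaves the harvest time of the D2 cells unsettled, and day and medium cannot be told apart. No label states that the 3 libraries of a group were grown as separate cultures. The p-values therefore reflect library-to-library spread, possibly only technical.

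IGF1 and IGF2 are secreted peptides that bind the tyrosine kinase receptor encoded by Igf1r, which signals through receptor substrates, PI3K and AKT. In muscle cells this pathway is known for promoting both growth and differentiation, and IGF2 made by myoblasts themselves acts as an autocrine signal during differentiation. The receptor encoded by Igf2r, also the cation-independent mannose 6-phosphate receptor, takes IGF2 up for degradation in lysosomes. IGFBP2 to IGFBP6 hold the ligands with high affinity and can withhold or deliver them, and proteases that cut these proteins release the ligand. IGFBP7 binds insulin-like growth factors weakly and is also known as a matrix-associated protein.

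The sequences at the starts of 3 members are shown: Igf2 and Igfbp5, called between the siRNAs, and Igfbp4, which rose between days with both siRNAs. Igfbp3 and Igf2r were also called between the siRNAs and are not shown. No result below depends on these sequences. They were picked after their values were seen. The sequences are from RefSeq (GRCm38.p6), run 5′ to 3′ on the gene's strand from 250 bases before the start site to 50 after it, and have motif matches in capitals. The motifs searched, on both strands, were the E-box CAGCTG, the TATA box TATAAA and the TEAD motif GGAATG. Where that motif lies on the opposite strand it reads as CATTCC.
Igf2 promoter, chr7:142657447-142657746, minus strand: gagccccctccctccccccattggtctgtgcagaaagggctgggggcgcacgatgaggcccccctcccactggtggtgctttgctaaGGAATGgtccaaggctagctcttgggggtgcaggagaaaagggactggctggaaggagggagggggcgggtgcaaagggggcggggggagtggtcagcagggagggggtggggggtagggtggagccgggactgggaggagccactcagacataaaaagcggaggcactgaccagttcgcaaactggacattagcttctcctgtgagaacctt
Igfbp5 promoter, chr1:72874816-72875115, minus strand: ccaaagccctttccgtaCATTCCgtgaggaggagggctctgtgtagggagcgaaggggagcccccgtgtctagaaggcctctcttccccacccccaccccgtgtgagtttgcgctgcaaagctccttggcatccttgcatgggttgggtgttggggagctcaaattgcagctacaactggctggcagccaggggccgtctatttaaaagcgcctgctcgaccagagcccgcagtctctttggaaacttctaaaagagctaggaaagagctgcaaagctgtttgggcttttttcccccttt
Igfbp4 promoter, chr11:99040994-99041293, plus strand: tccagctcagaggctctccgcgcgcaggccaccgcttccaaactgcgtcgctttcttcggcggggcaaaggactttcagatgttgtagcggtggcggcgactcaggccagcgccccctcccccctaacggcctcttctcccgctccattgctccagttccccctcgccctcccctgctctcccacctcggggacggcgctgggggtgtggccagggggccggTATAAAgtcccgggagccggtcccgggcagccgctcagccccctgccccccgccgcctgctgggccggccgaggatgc
Counted from the start site, the TEAD motif lay at position -163 in the Igf2 sequence and, reversed, at -233 in that of Igfbp5. The TATA box lay at -28 in the Igfbp4 sequence. Of 32851 mouse promoter sequences of the same length, 14.7% held the TEAD motif, 13.6% the TATA box and 16.3% the E-box. The sequences of Igfbp3 and Igf2r held no match to any of these motifs, nor did those of Igf1r, Igfbp2 and Igfbp7. That of Igf1 held the E-box at -157 and that of Igfbp6 the TATA box, reversed, at -148. A match is a description of these letters and not a site of binding.

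The siRNA itself was also compared with the members, because an siRNA can act on other transcripts through its seed. Its target site in Kctd10, on chromosome 5, is shown with the stretch that pairs with bases 2 to 8 of the guide strand in capitals.
Kctd10 target site: ccagcaattctGACGATAa
None of the 10 members held that stretch of 7 bases in an annotated 3′ untranslated region, against 158 of 11995 tested genes with such an annotation (1.32%). At that share a match among 10 genes was unlikely in any case. Whether the siRNA acted on the members through its seed was not tested.

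Kctd10, which encodes a substrate adaptor of CUL3 ubiquitin ligases, was at 34.3, 26.8 and 35.1 TPM (transcripts per 1000000) in D2 siKctd10 libraries, against 285, 276 and 289 TPM in D2 siControl libraries. It was at 24.8, 24.5 and 20 TPM in D0 siKctd10 libraries, against 272, 258 and 269 TPM in D0 siControl libraries. The knockdown thus left 11.3% of the siControl level at D2 and 8.66% at D0. The libraries held an estimated 12510000 to 18080000 read pairs. Both siKctd10 libraries numbered 3 stood apart on the second principal component (10.4% of the variance), at -42.4 each, against -1.2 to -20.3 for the other siKctd10 libraries. For some of the values that rest on them, the fit without them is also given. Myocyte markers (10 of 10 listed genes measured) summed to 2050 to 2400 TPM in D2 siKctd10 libraries, 3390 to 3610 TPM in D2 siControl libraries, 163 to 212 TPM in D0 siKctd10 libraries and 99.2 to 134 TPM in D0 siControl libraries. The higher D0 sum went with Acta1, at 196, 175 and 135 TPM in siKctd10 libraries, against 102, 72.9 and 87.2 TPM in siControl libraries. At D2, Myh3 and Tnnt3 of siKctd10 replicate 3 were at 612 and 24.2 TPM, above every siControl library (at most 340 and 11.4 TPM). All the other listed markers were lower in each D2 siKctd10 library than in any D2 siControl library. Of 7 adipocyte markers, 5 (Adipoq, Cidec, Fabp4, Lep and Plin1) were listed at 0 in every library. The list summed to 29.7 to 30.7 TPM in D2 siKctd10 libraries, 15.9 to 18.5 TPM in D2 siControl libraries, 31.9 to 34.2 TPM in D0 siKctd10 libraries and 28.3 to 35.6 TPM in D0 siControl libraries. Cebpa was at 26, 23.7 and 26 TPM in D2 siKctd10 libraries, against 13.6, 11.5 and 10.5 TPM in D2 siControl libraries. Pparg, the other marker of that list with reads, overlapped. It was at 4.75, 5.91 and 4.53 TPM in D2 siKctd10 libraries, against 4.87, 4.4 and 5.71 TPM in D2 siControl libraries. Of 7 leukocyte markers, Adgre1, Ptprc and Tyrobp were at 0 throughout, while Cd14 was at 21.7 to 46.6 TPM. That list summed to 23.2 to 33.6 TPM in D2 siKctd10 libraries, 26.1 to 32.4 TPM in D2 siControl libraries, 32.2 to 42.9 TPM in D0 siKctd10 libraries and 44.7 to 47.6 TPM in D0 siControl libraries. The 4 hepatocyte markers summed to at most 0.0884 TPM. In these bulk samples, fewer cells of a type and less RNA per cell cannot be told apart, and the part of the lower myocyte markers and of the higher Cebpa in the results below was not tested.

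The binding proteins made up nearly all of the members' RNA. TPM is a level per length, so that genes can be set side by side. By summed gene TPM, Igfbp5 was the most abundant member in every library and ranked 14 to 50 among the 13077 genes tested. The 6 binding protein genes summed to 6260 to 6790 TPM in D2 siKctd10 libraries, 6570 to 6800 TPM in D2 siControl libraries, 2970 to 3240 TPM in D0 siKctd10 libraries and 2330 to 2460 TPM in D0 siControl libraries. Igfbp5 held 61.1 to 77.8% of that sum. These values count a deposited transcript of a single exon, which held 66.9 to 83.7% of the Igfbp5 TPM. The other Igfbp5 transcript was at 260.44, 250.13 and 302.09 TPM in D0 siControl libraries, below Igfbp2 at 411, 511 and 420 TPM. In D0 siKctd10 libraries it was at 420.69, 435.59 and 833.22 TPM, above Igfbp2 at 349, 349 and 356 TPM. The rank and share of Igfbp5 thus depend on counting the single-exon transcript. The ligand genes stood far lower, with Igf2 ranking 4897 to 12254 and Igf1 ranking 6665 to 11928.

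**Figure D1:**
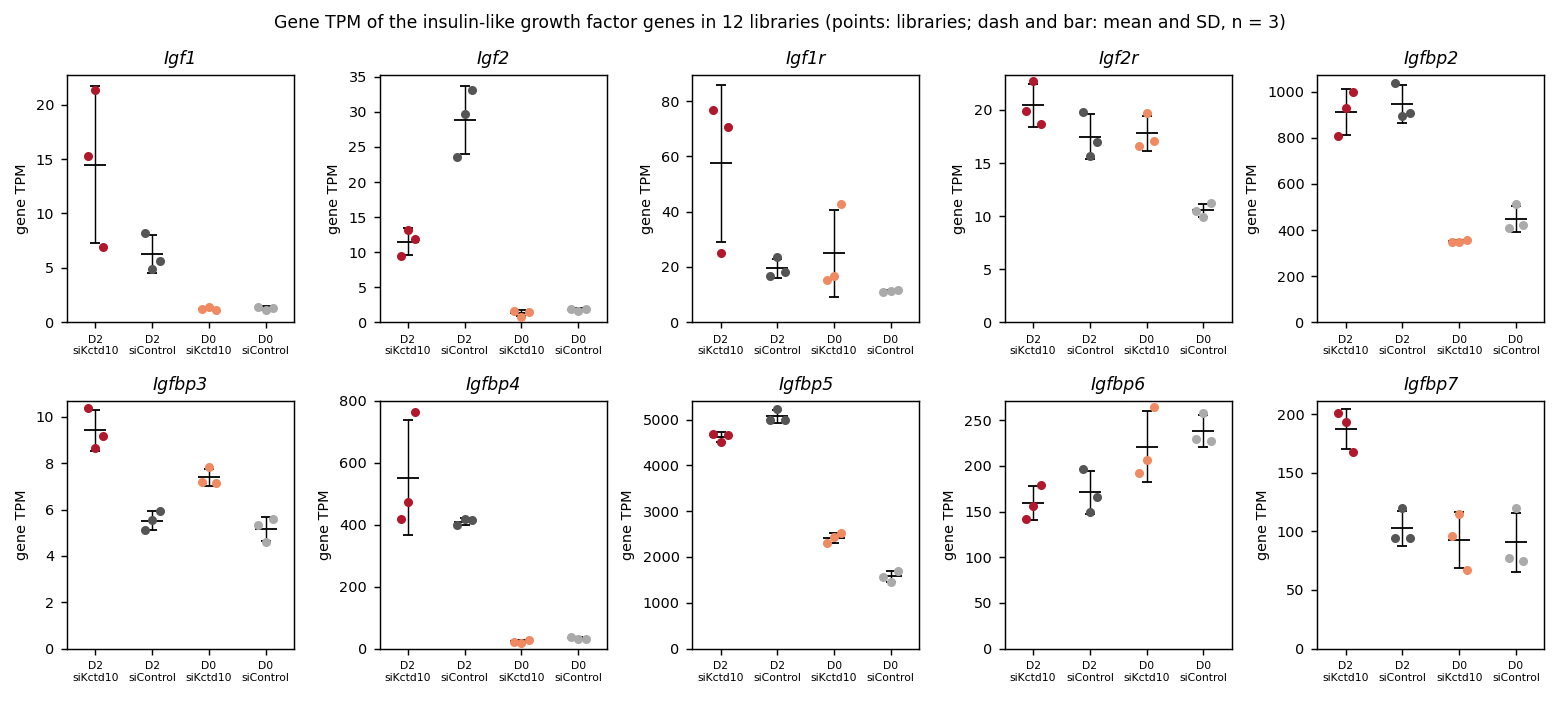
Gene TPM (linear axis from 0, own scale per gene) of the 10 members in each of 12 libraries, with points for libraries and a dash and bar for the mean and SD of 3. Igf2 libraries of D2 siKctd10 cells lie at 9.39 to 13.2 TPM, below those of D2 siControl cells at 23.6 to 33.2 TPM, and Igf1r points of D2 siKctd10 cells are split between 24.9 and 70.5 to 76.9 TPM.

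The effect of Kctd10 knockdown in differentiating cells was asked first. Igf2 fell and Igfbp3 rose in siKctd10 cells at D2, and no other member passed the threshold, an adjusted p of 0.05 from limma over all 13077 genes (Benjamini-Hochberg). The 2 of 10 members called compare with 4.75% of all genes tested (2.83% higher and 1.92% lower). Of all calls at D2, 59.6% were higher in siKctd10 cells, against 39.4% after median-ratio scaling and 46.6% after quantile normalization. The values of 6 of 10 members did not overlap between the siRNAs, against 28.4% of all genes.

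Igf2 was at 9.39, 13.2 and 11.9 TPM in D2 siKctd10 libraries, against 23.6, 29.7 and 33.2 TPM in D2 siControl libraries. Every siKctd10 library was below every siControl library. The means were 11.5 ± 1.96 TPM in D2 siKctd10 cells and 28.8 ± 4.86 TPM in D2 siControl cells (SD, n = 3 each), so that 40% of the siControl level was left. The log2 fold change of TPM + 1, the scale of every fold change here, was -1.25 (SE 0.19, limma adjusted p = 0.0068). The difference remained past the threshold in 24 of 24 alternative settings, from -1.40 to -1.03. The exact two-sided permutation p was 0.1, the smallest that 3 libraries against 3 can give.

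The estimate of Igf2 was traced to its exons (mm10, chromosome 7, minus strand), as exon FPKM, here the read pairs per kilobase of exon per 1000000 pairs, computed from the deposited coverage. StringTie gave nearly all of its TPM to a transcript starting at 142658804, whose own first exon of 441 bases was listed at 0 in all 12 libraries. The first exon with reads was the one of 109 bases starting at 142657496, the start whose promoter is shown above. It had 1.08, 1.26 and 0.95 exon FPKM in D2 siKctd10 libraries, against 4.01, 4.24 and 4.27 in D2 siControl libraries, and 0 at D0. The terminal exon of 3285 bases had 3.64, 5.36 and 4.95 in D2 siKctd10 libraries, against 9.95, 11.3 and 14.13 in D2 siControl libraries. The siRNA groups at D2 did not overlap at either exon. Summed over the Igf2 exons of at least 1 read pair, the log2 fold change was -1.10 (limma adjusted p = 0.0021). That measure rests on the terminal exon alone, because the other Igf2 exons of that length were listed at 0 in all 12 libraries. Exons shorter than 1 read pair (202 bases) were listed at 0 far more often (73.9 to 77.6% of them per library) than longer exons (21.6 to 22.7%), so values of short exons are uncertain.

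Igf1, the other ligand gene, was at 15.3, 21.3 and 6.89 TPM in D2 siKctd10 libraries, against 8.22, 4.9 and 5.62 TPM in D2 siControl libraries. The groups overlapped through the siKctd10 library numbered 3. The log2 fold change was 1.00 (SE 0.33, limma adjusted p = 0.13), and without both siKctd10 libraries numbered 3 it was 1.42 (limma adjusted p = 0.019). Without terminal exons it was 0.45 (limma adjusted p = 0.42). Its terminal exon of 6373 bases had 6.13, 8.38 and 2.54 exon FPKM in D2 siKctd10 libraries, against 3.33, 1.97 and 2.21 in D2 siControl libraries. The mean of Igf1 was thus higher and that of Igf2 lower in D2 siKctd10 cells, with the Igf1 difference resting on the libraries numbered 1 and 2.

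Igf1r was at 76.9, 24.9 and 70.5 TPM in D2 siKctd10 libraries, against 16.8, 23.5 and 18.1 TPM in D2 siControl libraries. The siKctd10 library numbered 2 was close to the siControl libraries and the others far above them. The log2 fold change was 1.37 (SE 0.46, limma adjusted p = 0.13), and without D2 siKctd10 replicate 2 it was 1.88 (limma adjusted p = 0.036). It passed only there, in 1 of 25 alternative settings, which ran from 0.29 to 1.88. The high values went with the terminal exon of 7648 bases, which had 35.59, 3.09 and 32.39 exon FPKM in D2 siKctd10 libraries, against 2.7, 5.75 and 2.45 in D2 siControl libraries. The exons before it that are at least 1 read pair long had 29.8, 30.6 and 26.4 in D2 siKctd10 libraries, against 22.3, 24.1 and 24.1 in D2 siControl libraries. Over these exons the libraries of each group lay close together, the groups did not overlap, and the log2 fold change was 0.29 (SE 0.10, limma adjusted p = 0.24).

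Igf2r was at 19.9, 22.7 and 18.7 TPM in D2 siKctd10 libraries, against 19.8, 15.7 and 17 TPM in D2 siControl libraries. These groups overlapped, with a log2 fold change of 0.22 (95% interval -0.06 to 0.50, limma adjusted p = 0.39). The noncoding gene Airn runs against Igf2r on the other strand and was at 0.367 to 5.14 TPM over the 12 libraries. Whether the libraries kept strand is not given in the sources used here, so that reads from Airn and Igf2r could not be told apart where they overlap.

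**Figure D2:**
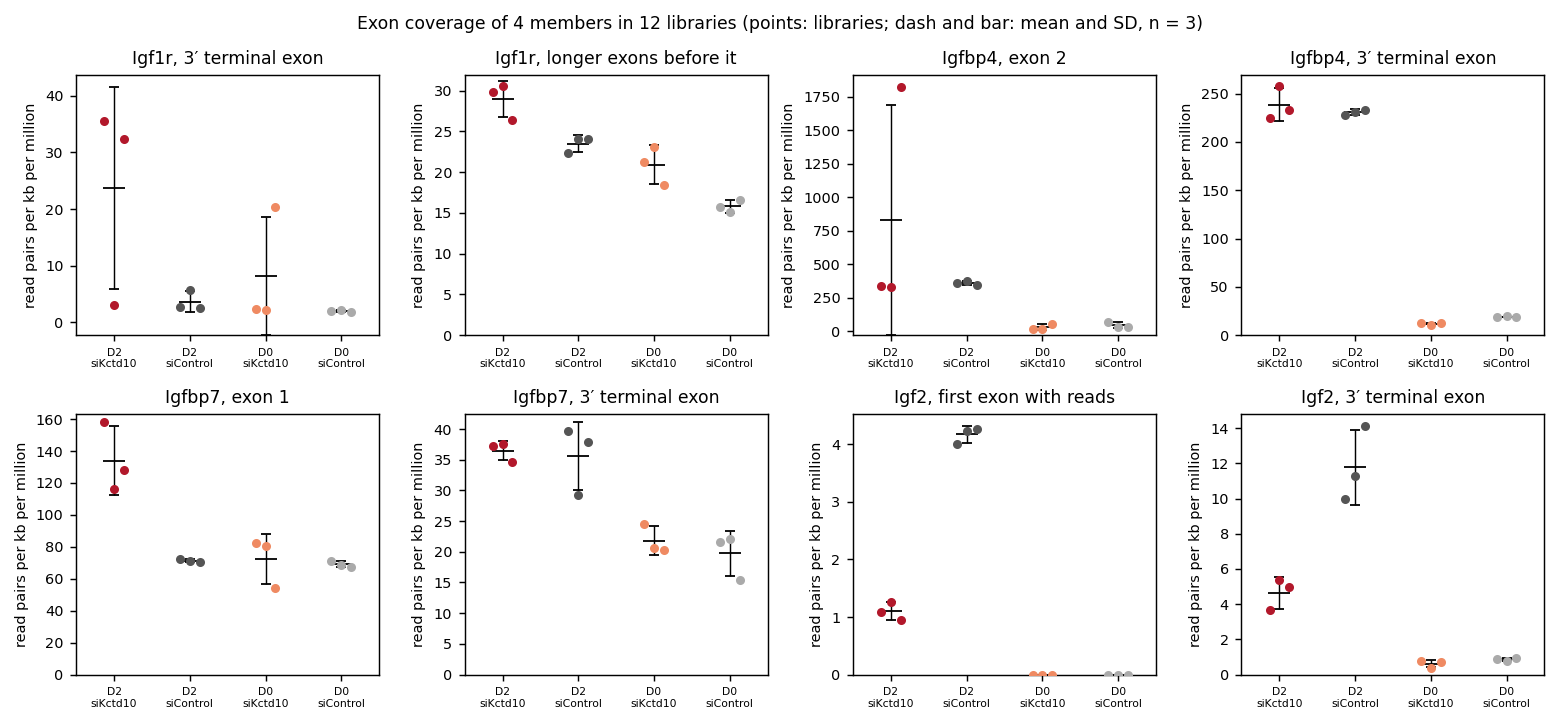
Exon FPKM (read pairs per kilobase per 1000000 pairs, linear axes, own scale per panel) at single exons of Igf1r, Igfbp4, Igfbp7 and Igf2, and over the longer Igf1r exons before the terminal one, with points for libraries and a dash and bar for the mean and SD of 3. The Igf1r terminal exon is at 20.28 in one D0 siKctd10 library and at 35.59 and 32.39 in D2 siKctd10 libraries, against at most 5.75 elsewhere, while the exons before it are at 26.4 to 30.6 in D2 siKctd10 and 22.3 to 24.1 in D2 siControl libraries.

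Igfbp3, a carrier that can also restrain ligand action at the cell, was at 10.4, 8.65 and 9.19 TPM in D2 siKctd10 libraries, against 5.11, 5.53 and 5.92 TPM in D2 siControl libraries. The groups did not overlap, and the mean rose to 9.40 ± 0.876 TPM in siKctd10 cells, against 5.52 ± 0.407 TPM in siControl cells (SD, n = 3 each). The log2 fold change was 0.67 (SE 0.12, limma adjusted p = 0.012). Leaving out D2 siControl replicate 1 gave 0.63 with a limma adjusted p that rounds to 0.05 and missed the threshold, and fitting only the 2 groups compared also lost the call (0.67, limma adjusted p = 0.075). Its terminal exon of 1416 bases had 6.6, 5.47 and 5.79 exon FPKM in D2 siKctd10 libraries, against 3.62, 3.32 and 3.65 in D2 siControl libraries.

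Igfbp7 was at 201, 193 and 168 TPM in D2 siKctd10 libraries, against 94.2, 120 and 94.3 TPM in D2 siControl libraries. The siKctd10 libraries were all above the siControl libraries, but the difference missed the threshold (log2 fold change 0.86, SE 0.23, limma adjusted p = 0.064). Its exon of 117 bases was above 0 only in the libraries numbered 2 of the 4 groups, and that of 127 bases only in the 3 D2 siKctd10 libraries. Its first exon of 506 bases had 158.1, 116.19 and 127.81 exon FPKM in D2 siKctd10 libraries, against 72.49, 71.29 and 70.26 in D2 siControl libraries. The terminal exon of 260 bases had 37.27, 37.56 and 34.7 in D2 siKctd10 libraries, against 39.7, 29.33 and 37.93 in D2 siControl libraries, and overlapped between the groups. This end lies against the end of Polr2b on the other strand, at 59.2 to 98.5 TPM. From all exons of at least 1 read pair, Igfbp7 rose by 0.75 (SE 0.14, limma adjusted p = 0.015, 11410 genes tested), an alternative chosen after seeing the data.

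Igfbp4, which binds both ligands and is known mainly as an inhibitor of their action, was at 419, 475 and 763 TPM in D2 siKctd10 libraries, against 398, 418 and 415 TPM in D2 siControl libraries. The groups did not overlap, but their nearest libraries were less than 1 TPM apart before rounding. The log2 fold change was 0.38 (SE 0.21, limma adjusted p = 0.38). The value of 763 TPM came with 1823.92 exon FPKM at exon 2, 146 bases long, against 339.36 and 329.72 in the other D2 siKctd10 libraries. The terminal exon of 1199 bases had 225.24, 257.39 and 233.07 in D2 siKctd10 libraries, against 227.33, 231.04 and 233.3 in D2 siControl libraries, and the groups overlapped there.

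The remaining binding proteins did not pass the threshold at D2. Igfbp5 was at 4690, 4500 and 4670 TPM in D2 siKctd10 libraries, against 5000, 5220 and 4980 TPM in D2 siControl libraries, with a log2 fold change of -0.13 (95% interval -0.28 to 0.01, limma adjusted p = 0.29). Its sign turned to 0.10 after quantile normalization. Igfbp2 was at 806, 929 and 1000 TPM in D2 siKctd10 libraries, against 1040, 893 and 907 TPM in D2 siControl libraries (log2 fold change -0.06, 95% interval -0.30 to 0.18, limma adjusted p = 0.82). Igfbp6, which prefers IGF2 as its ligand, was at 142, 156 and 179 TPM in D2 siKctd10 libraries, against 197, 150 and 166 TPM in D2 siControl libraries (log2 fold change -0.10, 95% interval -0.43 to 0.22, limma adjusted p = 0.75). Igfbp2 and Igfbp6 overlapped between the siRNAs.

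In undifferentiated myoblasts, Igf2r and Igfbp5 rose in siKctd10 cells and no member fell. The 2 of 10 members called compare with 2.45% of all genes at D0, and 1.48% of all genes were higher (60.6% of these calls higher, against 47.6% after median-ratio scaling and 47.4% after quantile normalization). The values of 6 of 10 members did not overlap between the siRNAs, against 23.2% of all genes. Igf2r was at 16.6, 19.7 and 17.1 TPM in D0 siKctd10 libraries, against 10.5, 9.96 and 11.2 TPM in D0 siControl libraries. The groups were well apart, with means of 17.8 ± 1.67 TPM in siKctd10 cells and 10.6 ± 0.647 TPM in siControl cells (SD, n = 3 each). On the log2 scale the rise was 0.70 (SE 0.13, limma adjusted p = 0.022). The call was lost in 7 of 25 alternative settings, among them without any single D0 siControl library (limma adjusted p = 0.08, 0.082 and 0.05 without replicates 1, 2 and 3) or without D0 siKctd10 replicate 2 (limma adjusted p = 0.073), while the fold change stayed between 0.55 and 0.74.

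Igfbp5, a binding protein that myoblasts are known to induce when they differentiate, was at 2300, 2440 and 2520 TPM in D0 siKctd10 libraries, against 1570, 1460 and 1700 TPM in D0 siControl libraries. The mean was 2420 ± 109 TPM in siKctd10 cells and 1580 ± 123 TPM in siControl cells (SD, n = 3 each), a ratio of 1.53 (log2 fold change 0.62, SE 0.06, limma adjusted p = 0.0012). A deposited transcript of a single exon, 3349 bases long and overlapping the last exon of the gene, held 66.9 to 83.7% of its TPM. The first exon of 1060 bases gave the same order, with 250.17, 236.62 and 223.57 exon FPKM in D0 siKctd10 libraries, against 172.37, 155.43 and 185.12 in D0 siControl libraries. The rise was called in 23 of 25 alternative settings, and lost when only the 2 groups were fitted (limma adjusted p = 0.058) and without terminal exons (0.45, limma adjusted p = 0.074).

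The other members did not pass the threshold at D0. Igfbp3 was at 7.19, 7.82 and 7.14 TPM in D0 siKctd10 libraries, against 5.34, 4.59 and 5.58 TPM in D0 siControl libraries (log2 fold change 0.44, limma adjusted p = 0.091). Igfbp2 was at 349, 349 and 356 TPM in D0 siKctd10 libraries, against 411, 511 and 420 TPM in D0 siControl libraries (log2 fold change -0.34, limma adjusted p = 0.15). The library at 511 TPM was the only one of the 12 in which Igfbp2's exon of 141 bases was not listed at 0.

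Igfbp4 was at 21.1, 18.9 and 28.9 TPM in D0 siKctd10 libraries, against 36.2, 32 and 31.6 TPM in D0 siControl libraries (log2 fold change -0.53, limma adjusted p = 0.26). Over its exons of at least 1 read pair it was at 8.62, 7.66 and 9.07 exon FPKM in D0 siKctd10 libraries, against 12.8, 13.5 and 13 in D0 siControl libraries, and on that measure it fell by 0.58 (SE 0.07, limma adjusted p = 0.0028). Without the terminal exon the log2 fold change was -0.04 (limma adjusted p = 0.99). On TPM it also passed without both siKctd10 libraries numbered 3 (log2 fold change -0.70, limma adjusted p = 0.013).

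Igf1r was at 15.2, 16.6 and 42.9 TPM in D0 siKctd10 libraries, against 10.8, 11.2 and 11.7 TPM in D0 siControl libraries (log2 fold change 0.92, SE 0.46, limma adjusted p = 0.37). The library at 42.9 TPM had 20.28 exon FPKM in the terminal exon, against 2.26 and 2.13 in the other D0 siKctd10 libraries. The longer exons before it had 21.3, 23.1 and 18.4 in D0 siKctd10 libraries, against 15.7, 15.1 and 16.6 in D0 siControl libraries, where the groups did not overlap (log2 fold change 0.38, SE 0.10, limma adjusted p = 0.17).

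Igf1, Igf2, Igfbp6 and Igfbp7 overlapped between the siRNAs at D0. Igf1 was at 1.22, 1.36 and 1.09 TPM in D0 siKctd10 libraries, against 1.44, 1.09 and 1.29 TPM in D0 siControl libraries (log2 fold change -0.03, limma adjusted p = 0.98). Igf2 was at 1.6, 0.784 and 1.52 TPM in D0 siKctd10 libraries, against 1.88, 1.58 and 1.95 TPM in D0 siControl libraries (log2 fold change -0.30, limma adjusted p = 0.49). Both ligand genes were thus close to the minimum of 1 TPM before differentiation. Igfbp6 was at 192, 206 and 265 TPM in D0 siKctd10 libraries, against 229, 258 and 227 TPM in D0 siControl libraries (log2 fold change -0.12, limma adjusted p = 0.74). Igfbp7 was at 95.9, 115 and 67.1 TPM in D0 siKctd10 libraries, against 77.7, 120 and 74.9 TPM in D0 siControl libraries (log2 fold change 0.03, limma adjusted p = 0.98).

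**Figure D3:**
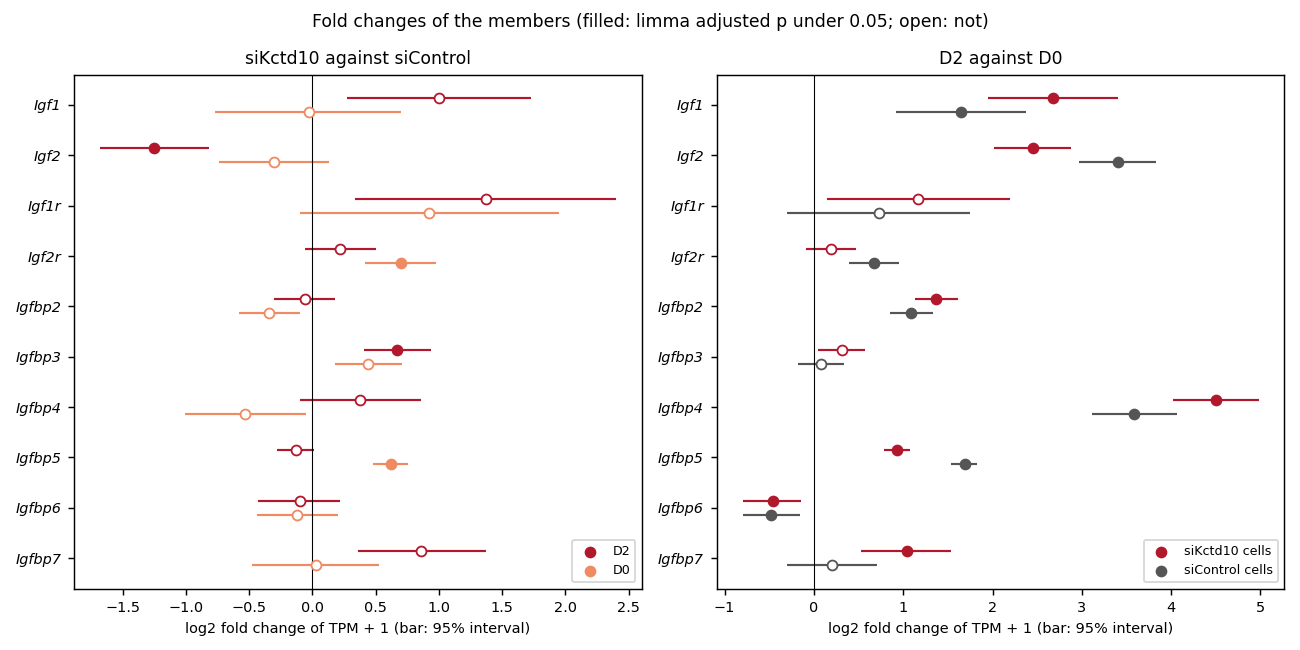
Log2 fold changes of TPM + 1 (horizontal axis) with 95% intervals for the 10 members, siKctd10 against siControl at D2 and D0 (left) and D2 against D0 in siKctd10 and siControl cells (right). Filled points have a limma adjusted p under 0.05. Igf2 at D2 (-1.25) lies below 0 and Igfbp5 is called at D0 (0.62) but not at D2 (-0.13).

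Whether the knockdown acted differently on the days was tested with an interaction term, the log2 fold change at D2 minus that at D0. Igfbp5 was the only member to pass, with -0.75 (SE 0.09, limma adjusted p = 0.0063), against 0.742% of all genes. It was called in 22 of 24 alternative settings and missed the threshold after quantile normalization (limma adjusted p = 0.2) and without terminal exons (limma adjusted p = 0.098). The Igf2 interaction was -0.95 (95% interval -1.56 to -0.34, limma adjusted p = 0.2), so its fall at D2 was not shown to differ from its change at D0, where its level was near 1 TPM. With log2(TPM + 5) in place of log2(TPM + 1) it passed, at -0.92 (limma adjusted p = 0.039). The intervals for Igfbp4 (0.91, 0.24 to 1.59, limma adjusted p = 0.3), Igfbp7 (0.84, 0.12 to 1.55, limma adjusted p = 0.39) and Igf2r (-0.48, -0.88 to -0.08, limma adjusted p = 0.37) also missed the threshold. On exons of at least 1 read pair, Igfbp4 passed (0.67, limma adjusted p = 0.012).

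Most of the members differed between days. In siControl cells, 6 of 10 members rose and 1 fell at D2 against D0, beside 35.5% of all genes called (21.4% higher). The values of 8 of 10 did not overlap between the days, against 52.3% of all genes. Igf2 rose to 28.8 ± 4.86 TPM at D2, against 1.80 ± 0.193 TPM at D0 (SD, n = 3 each), or 3.40 on the log2 scale (SE 0.19, limma adjusted p = 8.3e-07). Igfbp4 rose to 410 ± 10.8 TPM at D2, against 33.2 ± 2.54 TPM at D0 (SD, n = 3 each), or 3.59 on the log2 scale (SE 0.21, limma adjusted p = 1.2e-06). On the log2(TPM + 1) scale these changes were larger than those of the other members in siControl cells. Igfbp5 rose by 1.69 (to 5070 ± 130 TPM at D2, against 1580 ± 123 TPM at D0), Igf1 by 1.65 (6.25 ± 1.75 TPM at D2, against 1.27 ± 0.174 TPM at D0), Igfbp2 by 1.09 (948 ± 83.1 TPM at D2, against 447 ± 55.3 TPM at D0) and Igf2r by 0.67 (17.5 ± 2.12 TPM at D2, against 10.6 ± 0.647 TPM at D0), as log2 fold changes with limma adjusted p-values of 7.3e-08, 0.0031, 3.3e-05 and 0.0021. Igfbp6 fell by 0.48 on the log2 scale (171 ± 23.8 TPM at D2, against 238 ± 17.8 TPM at D0, limma adjusted p = 0.026), a call lost without D0 siControl replicate 1 or 2 or D2 siControl replicate 2 or 3 (limma adjusted p = 0.05 to 0.095) and without terminal exons (limma adjusted p = 0.12). The Igf2r call was lost without terminal exons (0.31, limma adjusted p = 0.11).

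Igf1r, Igfbp3 and Igfbp7 were not called between days in siControl cells. Igf1r was at 16.8, 23.5 and 18.1 TPM at D2, against 10.8, 11.2 and 11.7 TPM at D0 (log2 fold change 0.73, limma adjusted p = 0.26). Over its longer exons before the terminal one, the groups were at 22.3 to 24.1 exon FPKM at D2, against 15.1 to 16.6 at D0, and there Igf1r rose by 0.55 (SE 0.10, limma adjusted p = 0.0034, 7937 genes tested). The log2 fold change of Igfbp3 was 0.08 (95% interval -0.18 to 0.34) and that of Igfbp7 was 0.20 (95% interval -0.30 to 0.71).

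In siKctd10 cells, 6 of 10 members also rose and Igfbp6 fell at D2 against D0, beside 36.4% of all genes called, and 8 of 10 did not overlap between the days, against 48.4% of all genes. On the log2 scale Igfbp4 rose by 4.50 (limma adjusted p = 3.6e-07), Igf1 by 2.68 (limma adjusted p = 0.00015), Igf2 by 2.45 (limma adjusted p = 8.1e-06), Igfbp2 by 1.37 (limma adjusted p = 7.7e-06), Igfbp7 by 1.04 (limma adjusted p = 0.0052) and Igfbp5 by 0.93 (limma adjusted p = 3.1e-06). Igfbp6 had a log2 fold change of -0.46 (limma adjusted p = 0.03), lost without D0 siKctd10 replicate 3, without D2 siKctd10 replicate 1 or without D2 siKctd10 replicate 2 (limma adjusted p = 0.075 to 0.099), and when only the 2 groups were fitted (limma adjusted p = 0.074). Igf2 thus rose with differentiation in siKctd10 cells too, to 11.5 ± 1.96 TPM at D2, against 1.3 ± 0.45 TPM at D0 (SD, n = 3 each). Igf2r and Igfbp3 were not called, with log2 fold changes of 0.19 (limma adjusted p = 0.27) and 0.31 (limma adjusted p = 0.066). Igf1r had 1.17 (limma adjusted p = 0.073), and 1.63 and 1.68 without D0 siKctd10 replicate 3 and D2 siKctd10 replicate 2, where it passed (limma adjusted p = 0.015 and 0.0095). Over its longer exons before the terminal one it rose by 0.45 (limma adjusted p = 0.01). The median of all genes was 0.118 in this comparison and 0.004 after median-ratio scaling.

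The order of the groups differed between members. Igf2 was highest in D2 siControl cells, then in D2 siKctd10 cells, with no overlap between these and the D0 groups, which overlapped each other. By TPM, Igfbp5 was highest in D2 siControl cells, then D2 siKctd10, D0 siKctd10 and D0 siControl cells, with no overlap between neighbours. The step between the D2 groups was not called (-0.13, limma adjusted p = 0.29) and turned to 0.10 after quantile normalization. For Igfbp3, D2 siKctd10 and D0 siKctd10 libraries (7.14 to 10.4 TPM) were all above D2 siControl and D0 siControl libraries (4.59 to 5.92 TPM). The siKctd10 groups did not overlap each other (8.65 to 10.4 TPM at D2 and 7.14 to 7.82 TPM at D0), and the siControl groups did. Igfbp6 ran the other way from the rest, highest at D0, with each neighbour overlapping the next.

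The genes whose levels were most like those of Igf2 over the 12 libraries, by Pearson correlation of log2(TPM + 1) among 9933 genes, were Mamdc2 (0.996), the developmental myosin gene Myh8 (0.991), the cadherin gene Cdh18 (0.991) and the FOXO factor gene Foxo6 (0.987). Those most like Igfbp5 were the fatty acid desaturase gene Scd1 (0.996), the metalloproteinase gene Adam19 (0.992), the heparan sulfate endosulfatase gene Sulf1 (0.989) and Hs2st1, a heparan sulfate sulfotransferase gene (0.987). These are descriptions over libraries that share 4 groups. Myh8 was at most 0.0284 TPM in D0 libraries. It reached the minimum mean of 5 TPM only through D2 libraries, so its likeness to Igf2 is no support.

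Other genes of the pathway were read from lists chosen, like the members, with earlier results of these data known. Among proteases that cut binding proteins and their inhibitors, 2 of 9 measured genes rose in siKctd10 cells at D2 and none fell, with a median log2 fold change of 0.16, against 0.08 for all genes. The share of all genes called at D2 was 4.75%, to be read beside each count. Pappa, which encodes the protease pappalysin that cuts IGFBP4, rose to 3.69 ± 0.399 TPM in siKctd10 cells, against 0.936 ± 0.255 TPM in siControl cells (SD, n = 3 each), or 1.28 on the log2 scale (SE 0.13, limma adjusted p = 0.00073). Its siControl mean was below the minimum of 1 TPM, and the log2 fold change ran from 0.55 to 1.91 over 22 alternative settings, so its size is uncertain. Mmp2, a gelatinase gene, rose to 383 ± 30.1 TPM in siKctd10 cells, against 239 ± 4.56 TPM in siControl cells (SD, n = 3 each), a log2 fold change of 0.68 (limma adjusted p = 0.023), a call lost without D2 siControl replicate 1, 2 or 3 or D2 siKctd10 replicate 1 or 2 (limma adjusted p = 0.064 to 0.08), or without terminal exons (limma adjusted p = 0.083).

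Of receptor substrates and adaptors, 2 of 13 rose at D2: Irs1, the main receptor substrate, by 0.45 (173 ± 10.6 TPM in siKctd10 cells and 126 ± 7.53 TPM in siControl cells, limma adjusted p = 0.009) and Socs3, a cytokine-induced inhibitor, by 0.42 (limma adjusted p = 0.019). The Irs1 call was lost in 2 and the Socs3 call in 8 of 25 alternative settings. Of PI3K, AKT and mTOR genes, 3 of 27 rose: Pdpk1 by 3.74, Pik3r3 by 0.60 and Pik3r1 by 0.58 (limma adjusted p = 0.027, 0.02 and 0.021). Pik3r3 and Pik3r1 encode regulatory subunits of PI3K. Pdpk1, the gene of the kinase that activates AKT, was at 69.5 ± 6.07 TPM in siKctd10 cells and 4.27 ± 0.21 TPM in siControl cells (SD, n = 3 each), but over its exons before the terminal ones the log2 fold change was -0.02 (limma adjusted p = 0.99). The Pik3r3 and Pik3r1 calls were lost in 7 and 5 of 25 alternative settings.

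Of FOXO factors and their targets, genes that AKT signalling is known to repress, 2 of 12 rose and 1 fell at D2. Pdk4, a brake on pyruvate dehydrogenase, rose by 1.51 to 61.0 ± 2.56 TPM in siKctd10 cells, against 20.8 ± 1.98 TPM in siControl cells (SD, n = 3 each, limma adjusted p = 9.1e-05). Fbxo32, the muscle ubiquitin ligase gene also called atrogin-1, rose by 0.96 to 86.3 ± 3.33 TPM in siKctd10 cells, against 44.1 ± 5.88 TPM in siControl cells (SD, n = 3 each, limma adjusted p = 0.0027). Txnip had a log2 fold change of -0.61 (147 ± 11.8 TPM in siKctd10 cells and 224 ± 6.54 TPM in siControl cells, limma adjusted p = 0.0052). Without terminal exons all 3 calls were lost, with log2 fold changes of 1.00 for Pdk4, 0.60 for Fbxo32 and -0.43 for Txnip (limma adjusted p = 0.08, 0.59 and 0.32). Among regulators and neighbours of Igf2, 1 of 7 fell: H19, the imprinted noncoding gene beside Igf2, was at 732 ± 61.6 TPM in siKctd10 cells and 1030 ± 70.9 TPM in siControl cells (SD, n = 3 each, log2 fold change -0.49, limma adjusted p = 0.012), a call lost in 3 of 25 alternative settings, among them without D2 siControl replicate 2 (limma adjusted p = 0.053). Of 4 measured genes for other ligands, receptors and binding proteins, limma called 0 at either day (1 at each day at an unadjusted p under 0.05, and 0 by voom).

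At D0, 1 gene was called in each of 5 lists, beside 2.45% of all genes. Stc1, which encodes an inhibitor of pappalysin, fell (1 of 9 in its list) to 6.19 ± 0.633 TPM in siKctd10 cells, against 11.8 ± 1.19 TPM in siControl cells (SD, n = 3 each, log2 fold change -0.83, limma adjusted p = 0.024). Irs1 (1 of 13) rose by 0.35 (limma adjusted p = 0.041), and the calls of Stc1 and Irs1 were lost in 9 and 17 of 25 alternative settings. Eif4ebp2 (1 of 27), a translation repressor gene, rose by 0.66 (504 ± 45.6 TPM in siKctd10 cells and 319 ± 22.7 TPM in siControl cells, limma adjusted p = 0.006). Txnip (1 of 12) had a log2 fold change of -0.85 (limma adjusted p = 0.0012). Without terminal exons Eif4ebp2 (0.42, limma adjusted p = 0.4) and Txnip (-0.78, limma adjusted p = 0.11) were not called. H19 (1 of 7) rose by 0.44 (115 ± 9.52 TPM in siKctd10 cells and 84.2 ± 2.45 TPM in siControl cells, limma adjusted p = 0.03), lost in 10 of 25 alternative settings. H19 thus went up at D0 and down at D2 in siKctd10 cells.

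**Figure D4:**
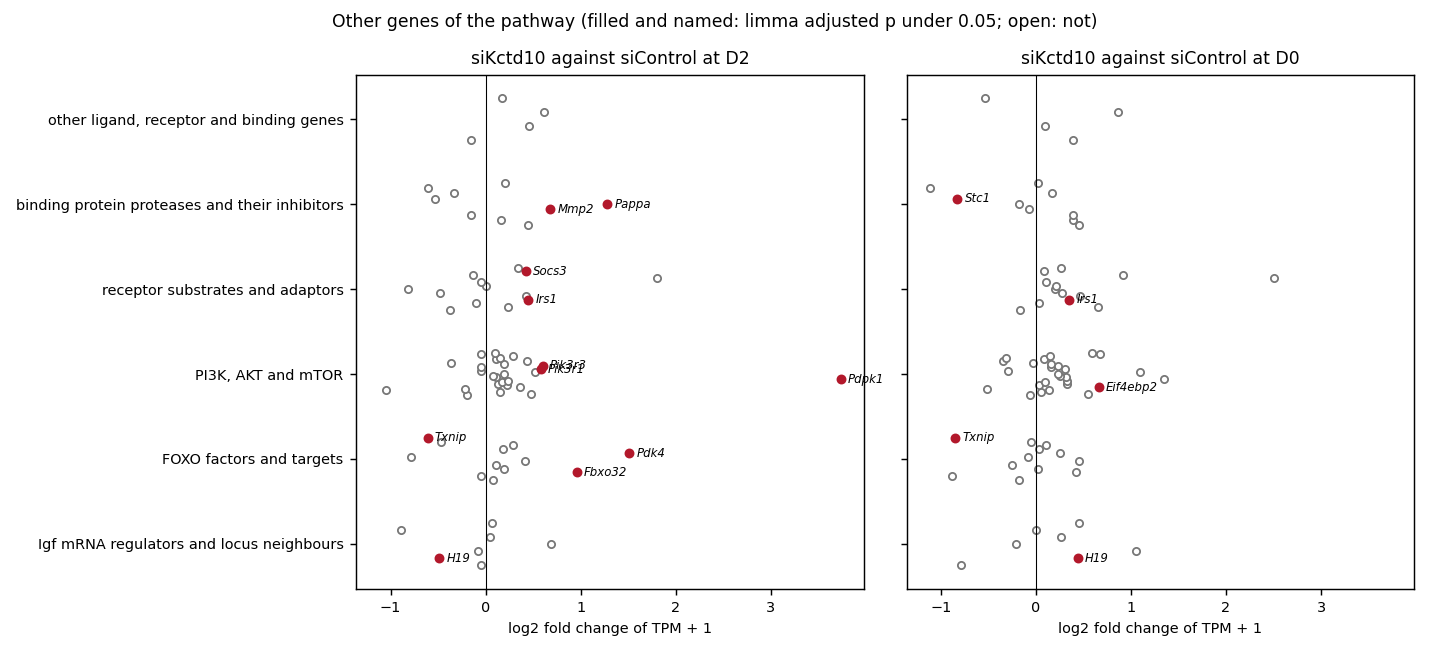
Log2 fold changes of TPM + 1 (horizontal axis) of the other pathway genes by list, siKctd10 against siControl at D2 (left) and at D0 (right), 1 point per gene. Filled and named points have a limma adjusted p under 0.05. Pdk4 (1.51), Pappa (1.28) and Fbxo32 (0.96) lie above 0 at D2, and Pdpk1 (3.74) rests on its terminal exons.

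In siControl cells 10 of 12 genes of the FOXO list rose and 1 fell at D2 against D0, beside 35.5% of all genes, with a median log2 fold change of 1.22, against 0.09 for all genes. Trim63, the muscle ubiquitin ligase gene also called MuRF1, had 3.82 (13.9 ± 1.28 TPM at D2 and 0.0553 ± 0.0957 TPM at D0), Foxo6 2.62, Txnip 2.31 and Pdk4 -1.76, as log2 fold changes with limma adjusted p-values of 2.3e-06, 4.9e-06, 7.3e-08 and 8.9e-07. Trim63, counted in that list, was below the minimum of 1 TPM in D0 siControl libraries. It passed the filter through D2 libraries, so its call is no support. Of regulators and neighbours of Igf2, 3 of 7 were called: H19 rose by 3.59 (limma adjusted p = 1.2e-08) and Zfp57, an imprinting factor gene, by 0.98 (limma adjusted p = 0.00031, and 0.28 without terminal exons). The third, the neighbouring insulin gene Ins2, was at 2.7 ± 0.6 TPM at D2 and listed at 0 in every D0 library. It passed the filter only through the D2 libraries, so its call is no support. Of adaptors, 6 of 13 rose, led by Gab1 (1.19), Irs2 (0.99), Sh2b2 (0.86) and Sh2b1 (0.71), with limma adjusted p-values of 9.1e-06, 5.1e-05, 0.0093 and 0.0043. Of proteases and inhibitors, 3 of 9 rose and 1 fell: Mmp2 (1.74), Furin (0.52), Timp3 (0.49) and Adamts1 (-0.63), with limma adjusted p-values of 7.4e-06, 0.013, 0.0035 and 0.0019. On exons of at least 1 read pair the Furin call was lost (limma adjusted p = 0.061), and without terminal exons its direction turned (-0.43, limma adjusted p = 0.41). Igfn1 (0.91, limma adjusted p = 0.0021) was the 1 of 4 called among other ligands, receptors and binding proteins. Its log2 fold change ran from 0.24 to 5.85 over 22 alternative settings. It thus rests on values near 0, and its call is no support. Of PI3K, AKT and mTOR genes, 7 of 27 rose and 2 fell, near the share of all genes called, led by Pdpk1 (-2.30), Tsc1 (0.86), Tsc2 (0.81) and Pik3r2 (0.76), with limma adjusted p-values of 0.046, 0.048, 0.045 and 9.1e-05. The calls of Pdpk1, Tsc1 and Tsc2 were lost in most alternative settings, that of Pdpk1 with the sign turned (0.15) without terminal exons.

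In siKctd10 cells 11 of 12 genes of the FOXO list rose and Pdk4 fell at D2 against D0, beside 36.4% of all genes called, with Trim63 at 3.40, Txnip at 2.55, Fbxo32 at 2.27 and Ccng2 at 2.18 (limma adjusted p = 5.7e-06, 5.8e-08, 7e-07 and 0.033). Trim63 is counted here too, and its call is again no support. The Ccng2 call was lost in 7 of 25 alternative settings. H19 rose by 2.66 (limma adjusted p = 5.8e-08) and Zfp57 by 0.61 (limma adjusted p = 0.0057), 2 of 7 in their list. Of proteases and inhibitors, 4 of 9 rose and 2 fell, led by Mmp2 (2.49), Pappa (1.31), Htra1 (-1.14) and Timp3 (0.68), with limma adjusted p-values of 9.2e-07, 3.1e-05, 0.0063 and 0.0005. Pappa was close to the minimum of 1 TPM at D0, and its value ran from 0.56 to 1.96 over 22 alternative settings. Of adaptors, 6 of 13 rose, led by Gab1 (1.00), Irs2 (0.95), Sh2b2 (0.71) and Socs3 (0.69), with limma adjusted p-values of 3.5e-05, 7.4e-05, 0.023 and 0.00014. Of PI3K, AKT and mTOR genes, 5 of 27 rose and 2 fell, beside the same 36.4% of all genes, among them Rps6kb2 (0.86), Pik3r3 (0.70) and Pik3r2 (0.55), with limma adjusted p-values of 0.045, 0.0013 and 0.00075. The calls of Rps6kb2 and Sh2b2 were lost in 15 and 8 of 24 alternative settings, and those of Htra1 and Zfp57 in 2 and 3 of 25. The direction turned for Rps6kb2 on exons of at least 1 read pair (-0.16, limma adjusted p = 0.59) and for Zfp57 without terminal exons (-0.81, limma adjusted p = 0.43). Igfn1 rose by 1.29 (limma adjusted p = 0.00024) and Htra1, in this list too, fell, 2 of 4 measured. The Igfn1 value ran from 0.39 to 4.36 over 22 alternative settings, and its call is again no support.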

How the data were processed

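Poly(A) RNA of 12 C2C12 libraries, 3 in each of 4 groups, was sequenced by the authors. The deposited values are transcript TPM and coverage, made with StringTie 1.3.3b against a fixed annotation, per the file headers. The submitters' processing notes name HISAT, SAMtools, StringTie 1.1.3, DESeq2 and mm10, so the StringTie version is not settled. The strandedness of the libraries is not given in the sources used here. Of 63759 deposited transcripts, 88% were matched to 25776 GENCODE vM21 genes on GRCm38, 42608 by identical introns and 13473 by at least 50% overlap of exon bases, and those left unmatched took 3.82 to 4.63% of each library's TPM. TPM was summed by gene. The libraries held 12510000 to 18080000 read pairs, estimated from coverage, and 666 of 13077 tested genes were listed at 0 in some library.

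Genes with at least 1 TPM in at least 3 libraries were tested with limma 3.58.1 in R 4.3.3 with statmod 1.5.0 (robust empirical Bayes with an intensity trend, a mean for each of the 4 groups, 8 residual df) on log2(TPM + 1), two-sided, with Benjamini-Hochberg adjustment over all genes and a threshold of 0.05. The script was tested on simulated data. Exon coverage was expressed as FPKM (read pairs per kilobase per 1000000 pairs). All 10 members are named, and of the other lists every gene past the threshold, up to 4 a list and comparison by size of change, except 1 gene that is not reported here. Likeness to Igf2 and Igfbp5 was ranked among genes with mean TPM of at least 5. The members and lists were chosen with earlier results of these data known. The alternatives were other pseudocounts, filters, scalings, matching and groups in the fit, voom, a replicate block and leaving out each library. Coverage of exons of at least 202 bases, the same without terminal exons, and leaving out both siKctd10 libraries numbered 3 were added after seeing the data.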

Additional observations from a re-analysis of the deposited data

Results flagged for a closer look

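The effect of siKctd10 differed between the days for 4 of the genes named, by the interaction term of the limma fit (log2 fold change at D2 minus that at D0, adjusted over all genes). Igfbp5 had -0.13 at D2 and 0.62 at D0, a difference of -0.75 (limma adjusted p = 0.0063). H19 had -0.49 at D2 and 0.44 at D0, a difference of -0.93 (limma adjusted p = 0.0097). Pdk4 had 1.51 at D2 and 0.25 at D0, a difference of 1.27 (limma adjusted p = 0.0052). Pappa had 1.28 at D2 and -0.18 at D0, a difference of 1.46 (limma adjusted p = 0.0063). Pappa was close to the minimum of 1 TPM in every group but D2 siKctd10 cells. It was fitted in only 21 of 24 alternative settings and called in each, and is not said here to have held without terminal exons. Without terminal exons the differences of Igfbp5 (-0.66, limma adjusted p = 0.098), H19 (-1.0, limma adjusted p = 0.054) and Pdk4 (0.64, limma adjusted p = 0.71) missed the threshold, and without both siKctd10 libraries numbered 3 so did that of H19 (-0.90, limma adjusted p = 0.052).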

How the results depend on the processing

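The D2 fall of Igf2 passed in all 24 alternatives run, the D0 rise of Igfbp5 in 23 of 25, the D2 rise of Igfbp3 in 22 of 24 and the D0 rise of Igf2r in 18 of 25. Depth limits the ligands at D0, near 1 TPM, and exons shorter than 1 read pair.

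Leaving out each library in turn gave 1 to 2 members and 118 to 306 genes called at D0, 1 to 3 members and 315 to 682 genes at D2, 6 to 7 members and 3937 to 4799 genes between days in siControl cells, 6 to 7 members and 4031 to 4650 genes in siKctd10 cells, and 1 member and 52 to 82 genes for the interaction, for which 97 genes were called with all libraries. The sole D2 member left was Igf2 without D2 siControl replicate 1, and the sole D0 member left was Igfbp5 without D0 siControl replicate 1, 2 or 3 or D0 siKctd10 replicate 2. The interaction called 62 genes with log2(TPM + 0.1), 167 genes and 2 members with log2(TPM + 5), 0 members after quantile normalization in limma (6 at an unadjusted p under 0.05) and 63 genes without both siKctd10 libraries numbered 3. At D0, fitting only the 2 groups compared called 0 members (limma, 5 at an unadjusted p under 0.05, and 2 by voom in the fit of all groups) and 72 genes. At D2 it called 2 members and 252 genes. These members were Igf2 and Igfbp7 (0.86, limma adjusted p = 0.043), while Igfbp3 was lost. On exons of at least 1 read pair, the interaction called 2 members (Igfbp4 and Igfbp5) and 170 genes. Without terminal exons, which left 7937 genes, 1 member (Igfbp2, -0.53, limma adjusted p = 0.048) and 55 genes were called at D0, where Igf2r and Igfbp5 were lost. At D2, 1 member (Igfbp7, 0.89, limma adjusted p = 0.027) and 118 genes were called on that measure. Igf2 and Igfbp3 did not pass the filter on it and were not tested. Between days, 1921 genes were called in siControl cells and 1960 in siKctd10 cells. The interaction called 0 members (limma, 3 at an unadjusted p under 0.05, and 1 by voom on all exons) and 10 genes. Other than by fewer libraries or genes, the cause was not tested.

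Deviations of libraries of the same number had correlations of -0.02 to 0.04 between siRNAs and 0.01 to 0.02 between days in siControl cells. In siKctd10 cells they were 0.10, 0.05 and 0.21 between days, against -0.15 to 0.06 for unlike numbers, a hint from the data and not from the design. Not every pair was over 0.1, so the numbers were not taken to pair the libraries. With the replicate block, Igfbp7 also passed at D2 (limma adjusted p = 0.021) and the interaction called 42 genes.

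Signs turned for Igfbp7 at D0 (-0.03 with median-ratio scaling, -0.05 with quantile normalization, -0.04 with voom, -0.14 to 0.24 leaving out a library), for the Igfbp6 interaction (-0.02 with median-ratio scaling, -0.20 on longer exons, -0.27 without terminal exons, -0.08 to 0.15 leaving out a library), for Igfbp5 at D2 (0.10 with quantile normalization), for Igf1 at D0 (-0.09 to 0.02 leaving out a library, 0.01 without both siKctd10 libraries numbered 3) and for Igfbp2 at D2 (-0.13 to 0.03 leaving out a library). Between days in siControl cells they turned for Igfbp3 (-0.16 with quantile normalization, -0.01 with voom and -0.01 on longer exons) and Kctd10 (-0.02 with voom, -0.05 without terminal exons), and in siKctd10 cells for Rps6kb2 (-0.16 on longer exons). Without terminal exons they turned for Igfbp6 at D0 (0.08), Pdpk1 at D2 (-0.02) and between days in siControl cells (0.15), Furin between days in siControl cells (-0.43), Igf2r (-0.04) and Zfp57 (-0.81) between days in siKctd10 cells, and the Igf1r interaction (-0.09). For these too the cause was not tested. Of calls higher at D2, the share in siControl cells was 60.4% (52% with median-ratio scaling, 49% with quantile normalization) and in siKctd10 cells 63.5% (51.8% and 50.4%), and for the interaction 50.5% were positive (38.6% and 44.8%).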
